A study of Mus musculus with 16 samples.

Results

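The ATP-binding cassette (ABC) genes of the mouse were followed through 16 RNA-seq libraries of endometrial epithelial organoids. The members are all rows of the deposited table whose Ensembl identifier carries a symbol made of Abc, a subfamily letter from a to g and a number. This rule found 40 of the 23306 genes in the table: 12 of subfamily A, 10 of B, 7 of C, 4 of D, 1 of E, 3 of F and 3 of G. The annotation names 50 such genes, and the other 10 (Abca14, Abca15, Abca16, Abca8a, Abcc12, Abcc6, Abcc9, Abcg3, Abcg5 and Abcg8) were not analysed here. Of the 40 members, 28 had a normalized read count of at least 10 in at least 4 libraries and were tested. The other 12 are described by their levels.

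ABC proteins use the energy of ATP to move molecules across membranes. Members of subfamilies B, C and G at the plasma membrane expel drugs, steroid and glutathione conjugates, cyclic nucleotides and prostaglandins, while many A and G members move cholesterol and phospholipids. Half-size members sit in mitochondria, lysosomes and peroxisomes, and subfamilies E and F are ATPases that act on ribosomes without transporting anything. In the uterus, transporters of this family help control which hormones, lipids and toxins the lining epithelium retains or releases.

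The organoids were grown from the epithelium of the endometrium, the lining of the uterus. Control organoids were Tgfbr2 FF, that is, with both copies of the type II TGF-beta receptor gene floxed and no Cre, and Tgfbr2 cKO organoids also carried PR-Cre, a recombinase made under the progesterone receptor gene. Because only the cKO group carried Cre, loss of the receptor and presence of the recombinase cannot be told apart. After 2 days in culture the organoids received vehicle for 6 days, or estradiol (E2, 10 nM) for 2 days and then E2 at 10 nM with the synthetic progestin medroxyprogesterone acetate (MPA) at 1 µM for 4 days, called E2/MPA here. The 4 groups held 4 libraries each: M1 to M4 (control vehicle), M5 to M8 (cKO vehicle), M9 to M12 (control E2/MPA) and M13 to M16 (cKO E2/MPA). The labels give no age and do not say whether libraries of a group came from separate mice, so the p-values rest on a spread between libraries that may be technical.

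Depth was 14372111 to 20016836 reads per library. Tgfbr2 (ENSMUSG00000032440) was at 4103 to 8054 in the control libraries and 3520 to 5526 in the cKO libraries, so the genotypes overlapped, and reads summed over a gene do not test for a deletion. All 8 epithelial markers (keratins, Epcam, Cdh1 and claudins) were read in every library, with sums of 121448 to 196417. The 10 stromal markers, among them collagens and Vim, summed to 786 to 48660. The highest sum of each group was in M4, M8, M12 and M16, called stroma-rich below, and M1 and M9 were next in the control groups. The epithelial sum was also the highest of its group in M4 (196417), M8 (185905), M12 (167985) and M16 (188118). Leukocyte markers were highest in M4 (15317) and M12 (20589) and at 1931 to 4828 in the other 14 libraries. Of 4 melanocyte markers, Pmel alone had a row, at 35.2 to 65.5 in all groups. In bulk samples, fewer cells of a type and less RNA per cell cannot be told apart.

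Promoter sequence is shown for the members with the largest fold differences between vehicle and E2/MPA, Abcb5 and Abcb1b. The windows are the 250 bases before the annotated start in the RefSeq table of build GRCm38.p6, in which 29 of the 40 members were found. The Abcb5 window is chr12:118966422-118966671 on the minus strand and the Abcb1b window is chr5:8797897-8798146 on the plus strand. Capitals mark every motif found on either strand, among a palindrome bound by progesterone, glucocorticoid and androgen receptors, its half-site, the estrogen response element and short SMAD elements.
Abcb5: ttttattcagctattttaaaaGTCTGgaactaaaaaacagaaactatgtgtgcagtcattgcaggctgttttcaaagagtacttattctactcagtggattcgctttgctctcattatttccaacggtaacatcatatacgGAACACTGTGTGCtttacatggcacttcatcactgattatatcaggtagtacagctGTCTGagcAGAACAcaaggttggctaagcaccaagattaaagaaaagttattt
Abcb1b: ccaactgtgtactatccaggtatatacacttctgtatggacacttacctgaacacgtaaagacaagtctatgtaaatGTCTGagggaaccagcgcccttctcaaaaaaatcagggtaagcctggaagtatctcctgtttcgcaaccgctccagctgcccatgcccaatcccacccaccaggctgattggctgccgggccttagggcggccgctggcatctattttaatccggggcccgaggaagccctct
The Abcb5 window held the palindrome, the arm GNACA and the arm TGTNC with 3 free bases between them, 109 bases before the start. The search covered all 32851 windows of the table, of 27025 genes, which are 300 bases long and include 50 bases after the start. Among the 29 members the palindrome was found in Abcb5 alone, and it was in a window of 0.537% of all genes. The half-site AGAACA lay 45 bases before the Abcb5 start and was found in 6 of 29 members (Abca1, Abcb11, Abcb1a, Abcb4, Abcb5 and Abcc4), against 21.3% of all genes. The SMAD element CAGAC occurred at 229 and 53 bases before the Abcb5 start and at 173 before that of Abcb1b, and in 14 of 29 members in all, against 53.2% of all genes. No member window held the estrogen response element (the arm GGTCA and the arm TGACC, 3 free bases apart, in 0.0700% of all windows) or the SMAD palindrome, GTCT followed at once by AGAC (0.213%). A match is a description of the letters and does not show that a factor binds there.

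The family took up 0.187% to 0.326% of the reads of a library. Levels of different genes were compared as normalized read count (reads divided by the size factor of the library) per kilobase of exon, with exon lengths from GENCODE M21. The multidrug and conjugate exporters Abcc4, Abcb1b and Abcc3 and the ribosome ATPase Abcf2 were the 4 highest members in every group. Abcc4, which exports cyclic nucleotides and prostaglandins, led in 3 groups, with 1049 per kilobase in control vehicle, 1264 in cKO vehicle and 1502 in cKO E2/MPA. In control E2/MPA, Abcb1b, which encodes one of the P-glycoproteins of the mouse, was first at 1491 per kilobase and Abcc4 second at 1120. All these ranks are of group means and do not hold in each library. Abcb1b made up less of the family's reads than Abcc4 in M9 (20.61% against 21.27%) and M12 (11.46% against 19.58%). It made up more in M10 (36.96% against 12.26%) and M11 (30.55% against 12.56%). Abcb5 was at 0 in both vehicle groups, 7th of 40 in control E2/MPA at 354 per kilobase and 16th in cKO E2/MPA at 101. Abcf1 (488 to 505 per kilobase) and Abcf2 (535 to 557) varied little between the groups.

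**Figure D1:**
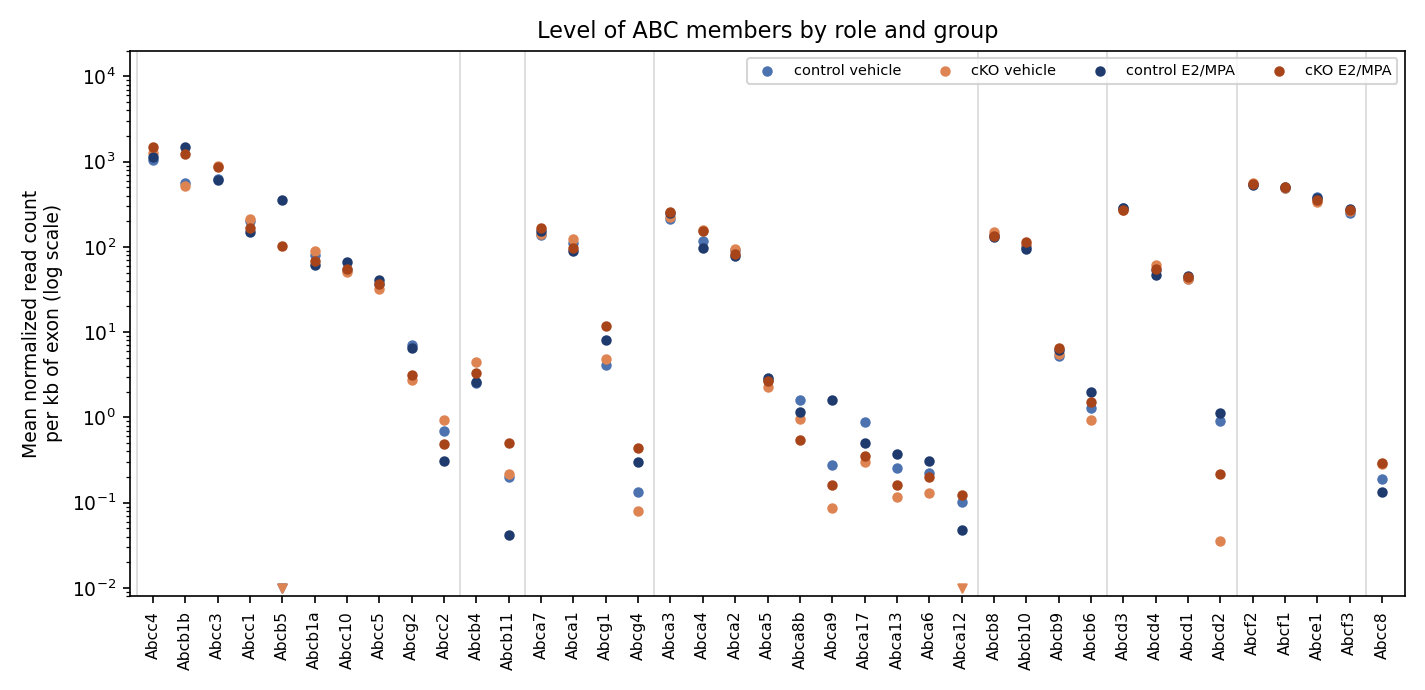
Mean normalized read count per kilobase of exon (log scale) of 39 of the 40 members in the 4 groups (4 libraries each), ordered by role (vertical lines separate roles) and by level. Triangles at the foot mark means of 0: both vehicle groups of Abcb5, drawn on top of each other, and the cKO vehicle group of Abca12. Abcc4 reached 1502 in cKO E2/MPA, while the 12 untested members lay below 10 in every group.

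The first pair of comparisons asked how E2/MPA changes the organoids of each genotype. In control organoids Abcb5 rose and Abcc1 fell. In cKO organoids Abcb5 and Abcg1 rose. No other member passed an adjusted p of 0.05 in the limma fit, so 2 of 28 members (7.14%) were called in each genotype, where 8.9% of all 16509 tested genes were called in control and 4.19% in cKO. The median log2 fold change of the 28 members was 0.06 in control and 0.08 in cKO, and that of all tested genes was -0.00 in both. At an unadjusted p under 0.05 there were 7 members in control (3942 of all genes) and 8 in cKO (3075). The 2 hormone comparisons share no library, and 16 members were above 0 in both, 9 below 0 in both and 3 (Abcb10, Abce1 and Abcg2) on opposite sides. The same count over all tested genes was not made, so this agreement cannot be called particular to the family. The fit was repeated with a random block that joined M1 to M9, M2 to M10 and so on, which is no pairing of the labels. In it 10 members passed in control, where 27.1% of all genes did. Among them were Abca1, Abca2, Abca3, Abca4, Abca7, Abcb1b, Abcb5, Abcc1 and Abcg1. In cKO 8 members passed (Abca1, Abca2, Abca3, Abca7, Abcb5, Abcb8, Abcc1 and Abcg1), where 18.8% of all genes did.

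**Figure D2:**
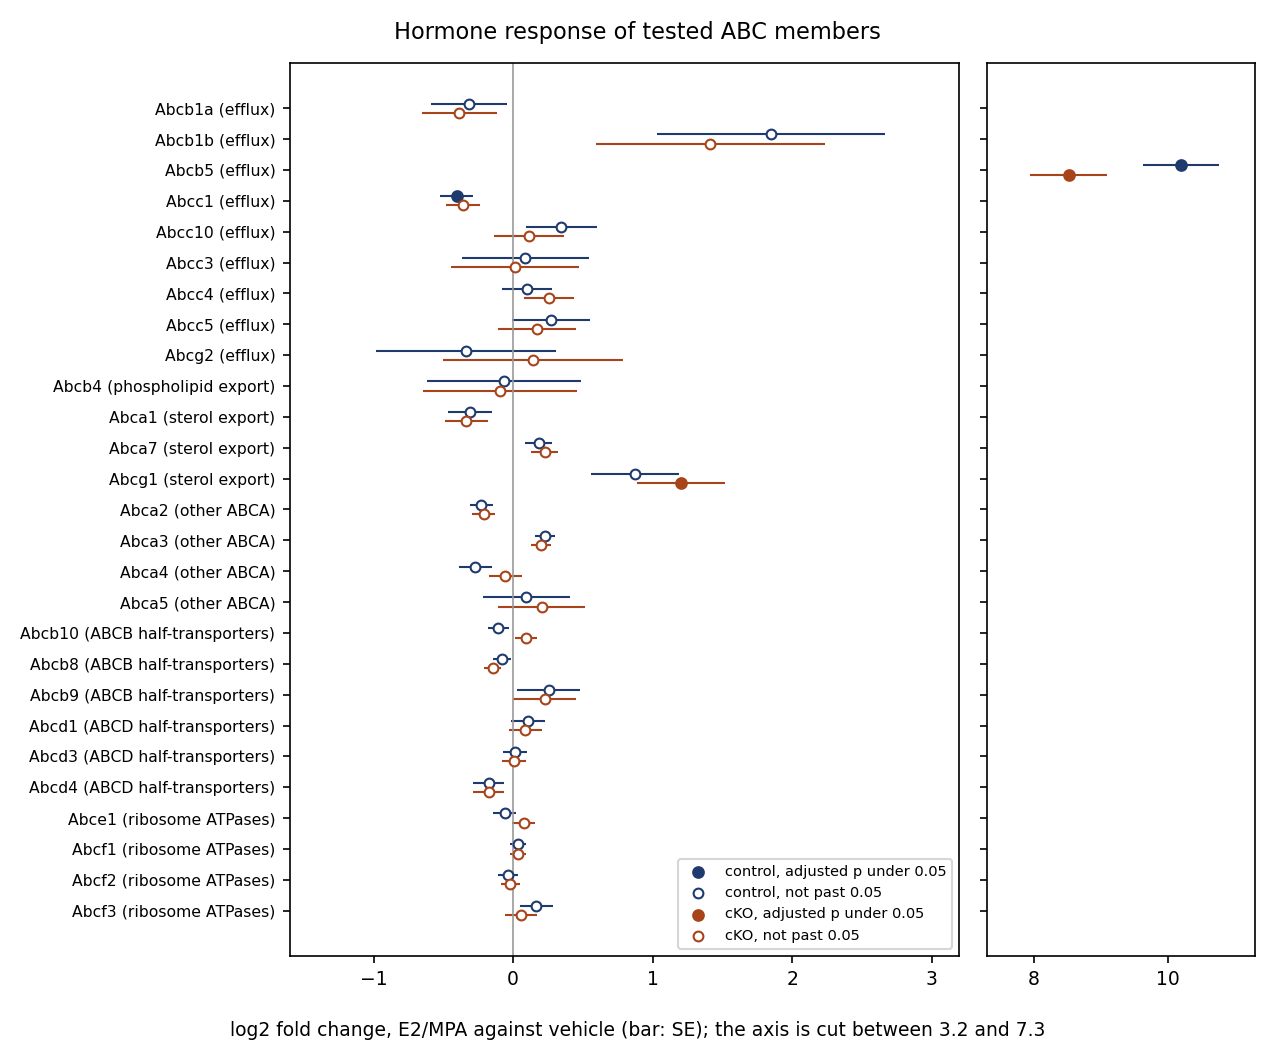
Log2 fold change of 27 of the 28 tested members, E2/MPA against vehicle, in control and cKO organoids (4 libraries per group; bars are the SE of the fit). Filled points passed an adjusted p of 0.05, and the horizontal axis is cut between the main range and Abcb5, which stands at 10.20 and 8.52.

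Abcb5 (ENSMUSG00000072791) encodes an efflux pump of subfamily B that is known from melanoma cells and from stem cells of the corneal limbus. It had no read in any of the 8 vehicle libraries, 0 of 70005445 reads in control and 0 of 67303765 in cKO. Under E2/MPA the control libraries M9 to M12 were at 824, 2259, 2754 and 368, and the cKO libraries M13 to M16 were at 807, 486, 347 and 131. Vehicle and E2/MPA libraries thus did not overlap in either genotype, and within each E2/MPA group the stroma-rich library was the lowest. The control mean of 1551 ± 1137 (SD, n = 4) was at least 2266-fold higher than the vehicle group, taking 3 reads in that whole group as its floor. The cKO mean of 443 ± 283 (SD, n = 4) was at least 614-fold higher. Even the lowest libraries were at least 538-fold (M12) and 182-fold (M16) above that floor, which covers counting error only. Both changes passed the limma test (adjusted p = 3.8e-07 in control and 4.3e-06 in cKO) and passed in all 29 alternative settings. Abcb5 entered the test through its E2/MPA libraries alone, and the vehicle libraries at 0 lower its SE and these adjusted p-values. With only the groups compared in the limma fit they were 3.3e-04 in control and 1.0e-04 in cKO. With edgeR they were 0.0016 and 0.0072. Of all reads in the family under E2/MPA, Abcb5 made up 1.10% to 5.76% in control libraries and 0.361% to 1.72% in cKO libraries.

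Abcb1b (ENSMUSG00000028970) and Abcb1a (ENSMUSG00000040584) encode the 2 mouse P-glycoproteins, broad drug pumps that also move steroids. Their sequences are close, so reads could be shared out between them with uncertainty. Abcb1b was at 1870, 10982, 4700 and 633 in M1 to M4 and at 9083, 20107, 14601 and 3850 in M9 to M12. In cKO organoids it was at 2535, 7104, 5796 and 1059 in M5 to M8 and at 7862, 12989, 14614 and 3740 in M13 to M16. The vehicle and E2/MPA libraries overlapped in both genotypes, because libraries within a group differed widely, and the stroma-rich library was the lowest in all 4 groups. Neither difference passed (log2 fold change 1.85, SE 0.82, adjusted p = 0.183 in control; 1.41, SE 0.82, adjusted p = 0.387 in cKO, limma). Each E2/MPA library was, however, 1.83 to 6.09 times as high as the vehicle library numbered 8 lower, in 8 of 8 cases. With these libraries as a random block the control difference passed (adjusted p = 0.0124) and the cKO one did not (adjusted p = 0.0590), and with stromal marker level as a covariate both passed (adjusted p = 0.00174 and 0.00725). Abcb1a means were 436 ± 145 and 336 ± 44.3 in control and 497 ± 151 and 371 ± 87.7 in cKO (SD, n = 4), lower under E2/MPA without passing the test (adjusted p = 0.520 and 0.493). The ratio of Abcb1b to Abcb1a ran from 2.41 to 21.6 in the vehicle libraries and from 12.9 to 50.9 in the E2/MPA libraries. Abcb1b, Abcb1a, Abca2, Abca4, Abcc3 and Abcg2 are described in detail because of their values, outside the rule that named the other members.

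**Figure D3:**
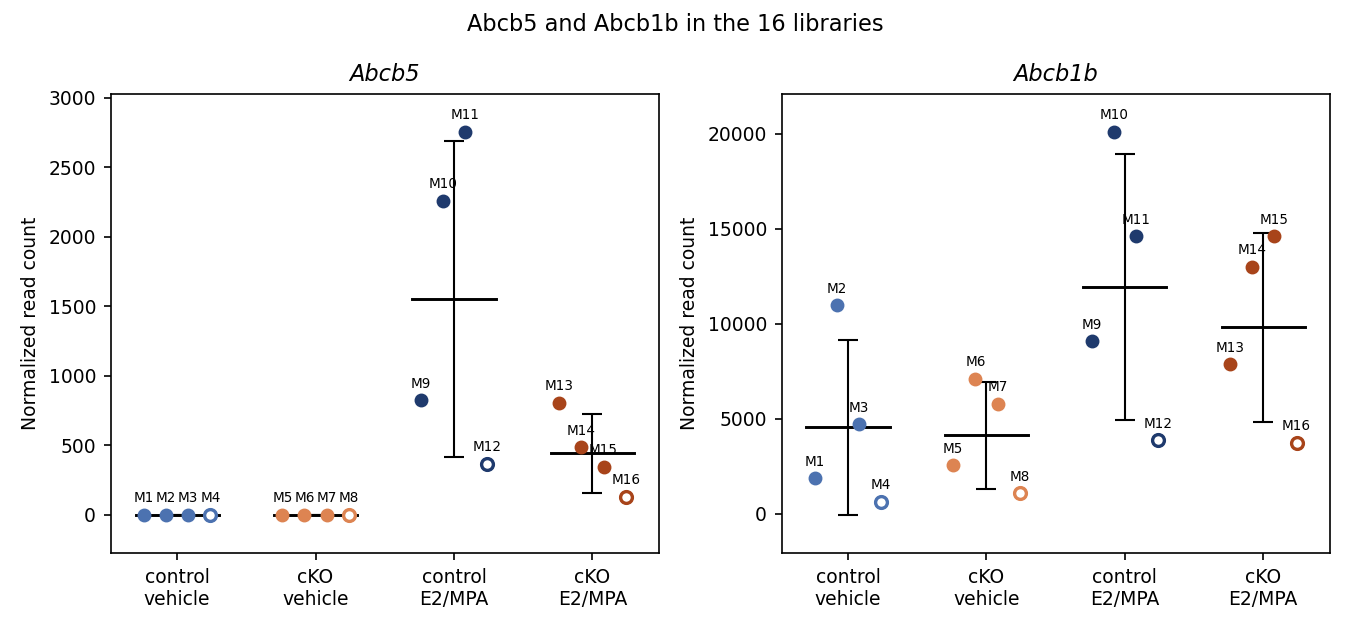
Normalized read count of Abcb5 and Abcb1b in each library, with the mean and SD of each group (n = 4). Open circles are the stroma-rich libraries M4, M8, M12 and M16. Abcb5 is at 0 in all vehicle libraries and at 131 to 2754 under E2/MPA, while Abcb1b ranges widely within every group, from 633 to 10982 in control vehicle.

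Abcc1 (ENSMUSG00000023088), an exporter of glutathione conjugates and leukotrienes, was at 3594, 2483, 2423 and 3723 in M1 to M4 and at 2403, 2201, 2088 and 2377 in M9 to M12. The groups did not overlap, although M3 and M9 nearly met, and the 2 high vehicle libraries, M1 and M4, were the 2 of their group with the most stromal marker reads. Abcc1 fell by 0.40 on the log2 scale in control (SE 0.12, adjusted p = 0.0472, limma). In cKO organoids the vehicle libraries M5 to M8 were at 3291, 3280, 3126 and 3289 and the E2/MPA libraries M13 to M16 at 2458, 2621, 2560 and 2478, a wider gap with a log2 fold change of -0.36 that did not pass (SE 0.12, adjusted p = 0.108). This cKO value passed in 4 of 29 alternatives: with only the groups compared in the fit (adjusted p = 0.00632), with library weights (0.0255), with the random block (0.00830) and with the stromal covariate (0.00825). The control call was lost in 17 of 29 alternatives, among them without the stroma-rich libraries (adjusted p = 0.115). It was also lost when any 1 of M1, M4 to M11 or M13 to M16 was left out. With only the groups compared (0.206) and with library weights (0.055) the control call was lost, while the cKO value passed. The adjusted p of control over all alternatives ran from 0.00264 to 0.206. The difference between the genotypes in this response did not pass (interaction 0.04, SE 0.17, adjusted p = 1.00).

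The other exporters of this role did not pass in either genotype. Abcc4 (ENSMUSG00000032849) was at 6704 ± 1560 and 7156 ± 1509 in control and 8075 ± 1486 and 9594 ± 1194 in cKO (SD, n = 4; adjusted p = 0.785 and 0.489, limma). Abcc3 (ENSMUSG00000020865), a basolateral exporter of glucuronides, was at 3590 ± 1781 and 3473 ± 1059 in control and 5063 ± 1941 and 4891 ± 1414 in cKO, with log2 fold changes of 0.09 and 0.01. These are differences of mean log2 values and have the opposite sign to the differences of the means. With edgeR they were -0.05 in both genotypes, so no direction is given. Abcc5 and Abcc10, which export nucleotides and lipophilic drugs, had log2 fold changes of 0.11 to 0.35. Abcg2 (ENSMUSG00000029802), the half-size pump known as breast cancer resistance protein, was low, at 7.56 to 119 over the 16 libraries. Abcc2, the apical conjugate exporter of liver and kidney, had 83 reads in all 16 libraries and was not tested.

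**Figure D4:**
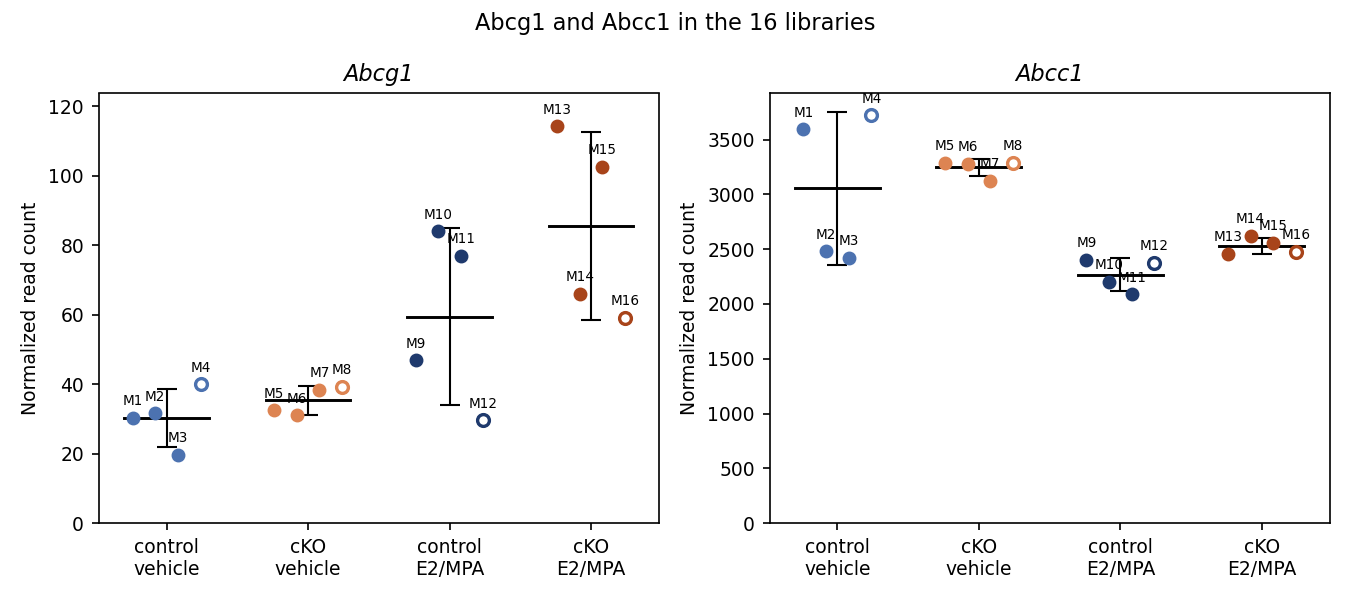
Normalized read count of Abcg1 and Abcc1 in each library, with the mean and SD of each group (n = 4). Open circles are the stroma-rich libraries. Abcg1 was at 59.1 to 114 in cKO E2/MPA, above all vehicle libraries (at most 39.99, in M4), and Abcc1 was lower under E2/MPA in both genotypes.

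Of the sterol and lipid exporters, Abcg1 (ENSMUSG00000024030), which hands cholesterol to high-density lipoprotein, was at 30.3, 31.6, 19.6 and 39.99 in M1 to M4 and at 46.9, 84.0, 76.9 and 29.7 in M9 to M12. The stroma-rich M12 lay among the vehicle libraries, and the control difference did not pass (log2 fold change 0.87, SE 0.32, adjusted p = 0.104, limma). Without the stroma-rich library of each group it was 1.30 and passed (adjusted p = 0.0119). In cKO organoids M5 to M8 were at 32.5, 31.1, 38.4 and 39.3 and M13 to M16 at 114, 66.0, 103 and 59.1, with no overlap. Abcg1 rose 2.30-fold in cKO, on the log2(value + 1) scale (log2 fold change SE 0.32, adjusted p = 0.0469, limma). This call was lost when any 1 of M1, M2, M5 to M9 or M13 to M15 was left out, and the adjusted p over all alternatives was 0.00551 to 0.145. Abca1 (ENSMUSG00000015243), the partner pump that loads cholesterol onto apolipoprotein A-I, went the other way: 1155 ± 275 and 923 ± 162 in control and 1273 ± 96.5 and 1008 ± 77.6 in cKO (SD, n = 4). Neither difference passed (log2 fold change -0.31, adjusted p = 0.241; -0.34, adjusted p = 0.260), although the cKO groups did not overlap. Each E2/MPA library was at 0.711 to 0.969 times the vehicle library numbered 8 lower, which is no pairing of the labels. Abca1 passed in both genotypes with the random block (adjusted p = 0.0294 and 0.0272) and with the stromal covariate (0.0292 and 0.0211). Abca7, a phospholipid exporter, had log2 fold changes of 0.18 and 0.23 without passing, and Abcg4 had 20 reads in all libraries.

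Among the other A members, Abca3 (ENSMUSG00000024130), which packs phospholipid into the lamellar bodies of lung and other secretory cells, was at 1964, 2186, 1969 and 1879 in M1 to M4 and at 2341, 2355, 2534 and 2153 in M9 to M12. In cKO it was at 2156, 2160, 2189 and 1913 in M5 to M8 and at 2550, 2334, 2575 and 2228 in M13 to M16. The cKO groups did not overlap and the control groups did so by 1 library on each side. The differences were small and even (log2 fold change 0.23, SE 0.07, adjusted p = 0.0600 in control; 0.20, SE 0.07, adjusted p = 0.136 in cKO). The control value passed in 8 of 29 alternatives, among them without the stroma-rich libraries (adjusted p = 0.0370). Abca2, a lysosomal lipid transporter of nervous tissue, was lower by a similar amount in both genotypes (-0.23 and -0.21). Abca4, a retinoid lipid flippase of photoreceptors, was at -0.27 and -0.06, and neither member passed in the main fit. Abca2 passed in both genotypes with the random block (adjusted p = 0.00576 and 0.0136) and with the stromal covariate (0.0228 and 0.0380). Abca4 passed in control with the random block alone (0.0273). Of the 10 members of this role, Abca5 was tested at low level (15.7 to 46.3), and Abca6, Abca8b, Abca9, Abca12, Abca13 and Abca17 had 17 to 125 reads each over the 16 libraries. Of these, Abca9 reached 40.7 in the stroma-rich M12 and at most 8.80 elsewhere.

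The intracellular members moved little. Of the mitochondrial and lysosomal half-transporters of subfamily B, Abcb8 (ENSMUSG00000028973), a mitochondrial member, was at 651 ± 27.1 and 617 ± 45.0 in control and 708 ± 30.0 and 640 ± 16.9 in cKO (SD, n = 4). The cKO groups did not overlap, and the log2 fold changes of the 4 tested half-transporters ran from -0.15 to 0.26 with no call. The peroxisomal importer of bile acid precursors and branched fatty acids, Abcd3 (ENSMUSG00000028127), had log2 fold changes of 0.01 and 0.00, and the lysosomal cobalamin protein Abcd4 (ENSMUSG00000021240) of -0.17 and -0.18. The ribosome recycling factor Abce1 and the translation ATPases Abcf1, Abcf2 and Abcf3 stayed between -0.06 and 0.17, with Abcf1 (ENSMUSG00000038762) at 2032 to 2375 in every library. Abcb4 (ENSMUSG00000042476), the phosphatidylcholine flippase of bile, was at 7.53 to 62.1, and its groups overlapped widely (adjusted p = 0.959 in both). Abcb6, Abcb11, Abcd2 and the sulfonylurea receptor gene Abcc8 (ENSMUSG00000040136) had 122, 20, 57 and 31 reads in all and were not tested.

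Counted by overlap alone, 3 members separated vehicle from E2/MPA in control (Abcb5 higher, Abca2 and Abcc1 lower), where 12.1% of all tested genes did so. In cKO 7 members separated (Abca3, Abca7, Abcb5 and Abcg1 higher, Abca1, Abcb8 and Abcc1 lower), where 13.8% of all genes did. As shares of the 28 members these were 10.7% and 25%.

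The next comparisons asked whether cKO organoids differ from control under each treatment. No member passed under vehicle or under E2/MPA (limma, adjusted p under 0.05), where 0% and 0.00606% of all tested genes were called. edgeR also called 0 members in both (0% and 0.00606% of all genes). DESeq2 called 0 under vehicle and 1, Abca4, under E2/MPA, where it called 0.0969% and 1.12% of all genes. The smallest adjusted p of a member was 0.777 under vehicle and 0.140 under E2/MPA, both for Abca4. At an unadjusted p under 0.05 there were 3 members under vehicle (984 of all genes) and 4 under E2/MPA (1794). Medians of the members were 0.07 and 0.05, against 0.00 and -0.01 for all genes. Groups without overlap were seen in 2 members under vehicle (Abcb8 higher and Abce1 lower in cKO; 3.01% of all genes) and in 2 under E2/MPA (Abca4 and Abcc1 higher in cKO; 6.17% of all genes).

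Abca4 (ENSMUSG00000028125) was at 1830, 1176, 1431 and 1251 in the control vehicle libraries and 2090, 1982, 1930 and 1658 in the cKO vehicle libraries. Under E2/MPA control was at 1261, 1034, 1118 and 1241 and cKO at 1779, 1888, 1946 and 1734, with the lowest cKO library above the highest control library. The log2 fold change of cKO over control was 0.45 under vehicle and 0.66 under E2/MPA (SE 0.12, adjusted p = 0.140). Under E2/MPA it passed with DESeq2 (adjusted p = 6.7e-04), with library weights (0.00981), with the stromal covariate (0.0179) and without M1. The adjusted p over all alternatives ran from 6.7e-04 to 0.484.

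Abcb5 under E2/MPA was lower in cKO, 443 ± 283 against 1551 ± 1137 (SD, n = 4), with M13 (807) near M9 (824) and above M12 (368), so the groups overlapped. The log2 fold change was -1.68 (SE 0.57, adjusted p = 0.305, limma), and an exact two-sided permutation test of the 4 against 4 libraries gave p = 0.114. It passed with library weights (adjusted p = 0.0294) and with the stromal covariate (0.0419), and not without the stroma-rich libraries (0.125). These fits share 1 spread with the 8 vehicle libraries, all at 0, which lowers the SE and the adjusted p of Abcb5. With only the E2/MPA groups in the limma fit the adjusted p was 0.461. Abcg2 was lower in cKO under both treatments, at 57.1 ± 28.7 against 22.6 ± 18.9 under vehicle and 52.9 ± 45.6 against 25.3 ± 22.7 under E2/MPA (SD, n = 4), with log2 fold changes of -1.49 and -1.01 that did not pass. Abcc3 was higher in cKO under both treatments by 0.58 and 0.50, also without passing (adjusted p = 0.903 and 0.757). Abcc4 showed differences of 0.28 and 0.44 (adjusted p = 0.872 and 0.393).

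The last comparison asked whether the hormone effect itself depends on genotype. The interaction called 0 members and 0% of all genes (limma, smallest unadjusted p of a member 0.0562), with 0 members and 309 genes at an unadjusted p under 0.05, and 0 members with edgeR and with DESeq2. The largest interaction was that of Abcb5, -1.68 (SE 0.81, adjusted p = 1.00), which equals its genotype difference under E2/MPA because both vehicle groups were at 0. The SE of Abcb5 is lowered here too by the vehicle libraries at 0. Abcg1 was at 0.33 and Abcb1b at -0.43, each smaller than its SE.

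Several members had their lowest or highest value of each group in the stroma-rich library. A relation to stromal marker level over the other libraries was not tested. The stroma-rich library was the lowest of its group in all 4 groups for 7 of 28 members (Abca3, Abcb1a, Abcb1b, Abcb4, Abcc10, Abcc3 and Abcf3), against 9.26% of all tested genes. It was the highest in all 4 groups for 1 member, Abcg2, against 12.1% of all genes. Abcc3 shows the size of this: M1 to M4 were at 3318, 4799, 5064 and 1180, M5 to M8 at 6092, 5892, 6111 and 2156, M9 to M12 at 3820, 4011, 4164 and 1899, and M13 to M16 at 5567, 5096, 6050 and 2853. Abcg2 ran the opposite way, with 97.6, 50.2, 119 and 59.1 in M4, M8, M12 and M16 and 7.56 to 55.6 in the other libraries. The spread around the group means was largest for Abcb1b (SD 1.28 on the log2 scale), Abcg2 (0.99), Abcb5 (0.87), Abcb4 (0.84) and Abcc3 (0.71) and smallest for Abcf1 (0.07). The figure of Abcb5 includes the 8 vehicle libraries at 0, so its spread under E2/MPA alone was larger. The median was 0.18 for the members and 0.26 for all tested genes. The part of other cell types in the hormone and genotype values was not tested beyond the settings given.

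**Figure D5:**
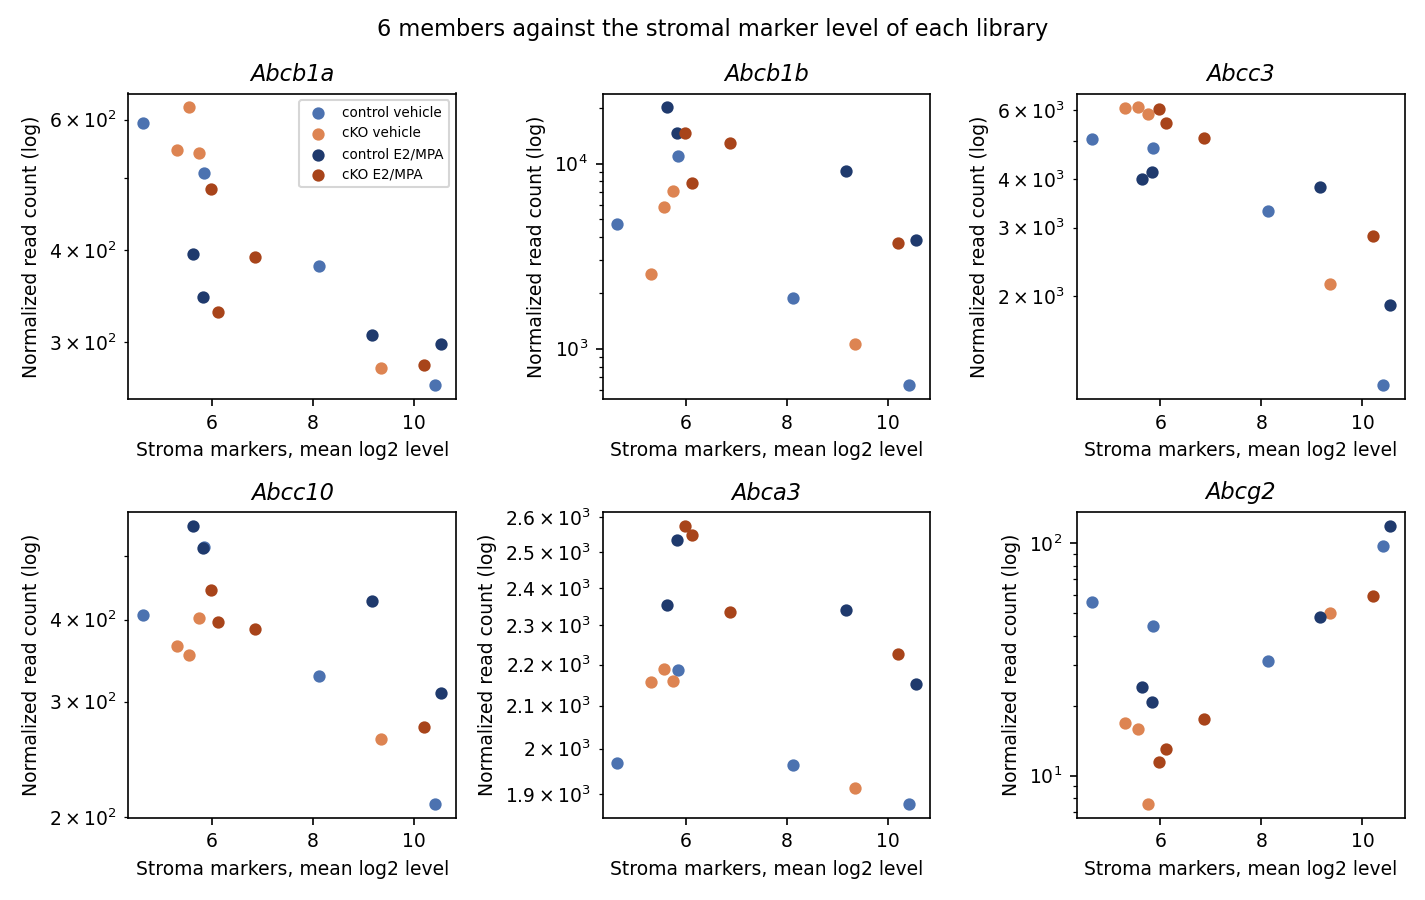
Normalized read count (log scale) of 6 members against the mean log2 level of 10 stromal markers, 1 point per library, coloured by group. Abcb1a, Abcb1b, Abcc3, Abcc10 and Abca3 were lowest in the stroma-rich library of every group, and Abcg2 was highest there.

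Genes that work with the family were counted from lists of sterol handling, xenobiotic sensing, glutathione conjugation, solute uptake and organelle partners. Of 16 genes of the liver X receptor (LXR) and sterol handling, 4 rose in control and 0 fell (median 0.23), and 1 rose in cKO (median 0.17). Beside the counts of these lists stand the 8.9% of all tested genes called in control (890 higher, 579 lower) and the 4.19% called in cKO (447 higher, 245 lower). Lpcat3, a phospholipid remodelling enzyme, rose in both (0.30, adjusted p = 0.0207; 0.36, adjusted p = 0.0125), and Npc2, which carries cholesterol out of lysosomes, rose in control from 2794 ± 191 to 3936 ± 558 (SD, n = 4). Rxra, the partner receptor of LXR, and Sqle, a cholesterol synthesis enzyme, also rose in control by 0.48 and 0.42. Of 5 tested xenobiotic sensors, Arnt rose by 0.34 and its partner Ahr fell by 0.90 on the log2 scale in control, with 0 called in cKO. Of 19 tested glutathione genes, 3 rose and 1 fell in control and 2 rose and 1 fell in cKO: the transferase Gstm2 by 1.33 and 1.00, and Gclm, a subunit of the enzyme that starts glutathione synthesis, by 0.71 and 0.56. Gstm1 rose by 1.05 in control, and Gstt1 fell by 1.12 and 1.08 on the log2 scale. Gstm1 and Gstm2 are close paralogs, so their split is uncertain.

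Of 11 tested uptake carriers, 1 rose and 2 fell in control and 1 rose and 1 fell in cKO. The carnitine carrier Slc22a5 rose from 328 ± 29.7 to 743 ± 188 in control and from 279 ± 46.6 to 504 ± 73.7 in cKO (SD, n = 4; adjusted p = 9.7e-04 and 0.0110, limma). The nucleoside carrier Slc29a2 fell by 0.83 and 0.58 on the log2 scale, and Slc22a18 fell by 0.83 in control. Of 7 peroxisome import and iron-sulfur or heme partners 0 were called (median 0.05 in control and 0.08 in cKO). The 2 with the highest mean level, Pex19 and Pex5, were at -0.10 and -0.12 in control and -0.02 and -0.02 in cKO. The family genes with other symbols were not called either: Tap1 and Tap2, the peptide pump of antigen presentation, were at -0.20 and -0.17 in control and -0.24 and -0.13 in cKO, and the chloride channel gene Cftr at -0.70 and -0.28. Pgr, the progesterone receptor gene, fell by 1.44 and 0.99 on the log2 scale. Under vehicle Pgr was at 5134 ± 1296 in control and 3217 ± 277 in cKO (SD, n = 4). Under E2/MPA it was at 1885 ± 424 in control and 1611 ± 83.6 in cKO, and the genotypes overlapped under both treatments. No gene of these lists was called for genotype or interaction.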

How the data were processed

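RNA of the 16 libraries was sequenced from TruSeq libraries on an Illumina NovaSeq instrument, per the labels' protocols. The authors deposited 1 table of normalized read counts, a signal in which the reads of each gene were scaled by a factor for the library. HISAT2, featureCounts, DESeq2 and the build GRCm39 are named, without versions, per the submitters' processing notes. The sources used here do not give the strand setting of featureCounts, so reads of a gene and of an antisense partner may not be separable.

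Multiplied by the library's factor, 100% of the values in every library were whole reads within 0.01 read. No pair of libraries in a group agreed within counting noise (the closest, M10 and M11, had a chi-square of 7.70 per degree of freedom). Symbols and exon lengths came from GENCODE M21, an annotation of another build, by Ensembl identifier. They matched 22484 genes, and the 822 others, which hold 1.83% of the reads, could not be searched for members.

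The 16509 genes that reached a value of 10 in 4 or more libraries were fitted together with limma (version 3.58.1, run in R 4.3.3) as log2(value + 1), with a mean per group, a mean-variance trend and two-sided tests. Fold changes are on that scale, which understates the change of low genes. P-values were adjusted by the Benjamini-Hochberg method over all tested genes, with a threshold of 0.05. The script was tested on simulated data. The 14 kinds of alternatives included other pseudocounts, filters and scalings, edgeR (4.0.16) and DESeq2 (1.42.0) on the recovered reads, library weights, a stromal covariate, a random block and leaving out libraries.

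Named in full were Abcb5, each member called in a comparison, and in each role the member with the highest mean and the one with the lowest hormone p-value (13 members), and 6 others were chosen after their values were seen. Of the other lists, up to 3 called genes with the lowest adjusted p were named, or the 2 with the highest mean, beside Tgfbr2, Pgr, Tap1, Tap2 and Cftr. Sqle was added to them after its value was seen. The members, roles, lists and markers were chosen with earlier results of these data known. One epithelial marker and one member are not reported by name or drawn here, though the counts over the family include the member.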

Additional observations from a re-analysis of the deposited data

Results flagged for a closer look

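In groups of 4 libraries, a library was singled out where its distance to the nearest of the other 3 was nearly the whole range of the group (Dixon's test at its 95% level). Of 74 groups of the 19 members described, 7 held such a library, and chance singles out about 5% of groups. That share is no firm yardstick here: 6 of the members were chosen after their values were seen, and the same libraries recur.

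In cKO vehicle, M8 was lowest for Abca3 (1913, the others 2156 to 2189) and for Abcc3 (2156, the others 5892 to 6111). M12 was lowest for Abcc3 in control E2/MPA, at 1899 against 3820 to 4164. Abcg2 in cKO E2/MPA was highest in M16, at 59.1 against 11.4 to 17.6. M8, M12 and M16 were the stroma-rich libraries of these groups, and the part of the other cell types in these values was not tested.

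The remaining 3 were not in stroma-rich libraries. M7 was lowest for Abcc1 in cKO vehicle (3126, the others 3280 to 3291). M15 was highest for Abcb4 in cKO E2/MPA, at 43.3 against 26.9 to 28.2. M14 was highest for Abcc8 in cKO E2/MPA, at 7.04 against 0 to 1.19, a difference of a few reads.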

How the results depend on the processing

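In control organoids, where 2 members were called for E2/MPA, 1 was called without a filter on low values, 4 with DESeq2, 1 with only the groups compared in the fit, 10 with a random block and 8 with the stromal covariate. Leaving out single libraries gave 1 to 4. In cKO organoids, also with 2, there was 1 without a filter, 1 with quantile normalization, 4 with only the groups compared, 8 with the random block and 7 with the covariate, and leaving out single libraries gave 1 to 2. For genotype under E2/MPA, with 0 called, DESeq2 gave 1 (Abca4; 1.12% of all genes), library weights 3 (Abca4, Abcb10 and Abcb5; 3.62%) and the covariate 2 (Abca4 and Abcb5; 2.76%), and leaving out single libraries gave 0 to 1. The cause of these shifts was not tested. Counts over all genes moved too in the hormone comparisons: 27.1% of genes were called in control and 18.8% in cKO with the block, and 24.8% (control) and 18% (cKO) with the covariate. In control the share of all genes was 5.724% without a filter, 13.17% with DESeq2 and 2.932% with only the groups compared. In cKO it was 2.536% without a filter, 3.955% with quantile normalization and 5.318% with only the groups compared. The main fit called 8.898% of all genes in control and 4.192% in cKO. Genotype under vehicle and the interaction kept 0 members in every setting. Abcb5 passed for E2/MPA in both genotypes in every setting. Of 2600 recomputed values of single members, 2531 kept their side of the threshold, 29 lost and 40 gained a call, and 0 reversed a called direction. Most of the 2600 were values of results not called in the main fit. The lost calls were all of Abcc1 in control (17 of 29 settings) and Abcg1 in cKO (12 of 29).

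The labels give no pairing, since the groups share no library number. The random block joined libraries 8 numbers apart, chosen with earlier results known. Deviations of such libraries correlated at 0.39 to 0.75 in the 8 pairs, and the consensus correlation of the block was 0.496. The highest values were of stroma-rich libraries, M4 with M12 (0.746) and M8 with M16 (0.723). Other pairs across the groups were not computed, so these values cannot show that libraries 8 numbers apart belong together. Depth limits the 12 untested members, which had 17 to 125 reads each over all libraries, and the low members Abcg1, Abcg2 and Abcb4.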
